A study of Rattus norvegicus with 8 samples.

Results

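The insulin-like growth factors and their binding proteins were followed as 9 genes, chosen by symbol from the 32623 genes of the count tables: the ligands Igf1 and Igf2, the receptor Igf1r, and the binding proteins Igfbp2, Igfbp3, Igfbp4, Igfbp5, Igfbp6 and Igfbp7. All 9 were found, each as 1 row of the tables. They were chosen by symbol and not by a measured value, though earlier results of these data were known by then. None of them was among the marker genes by which cells were assigned to a cell type. The rule of assignment was set after their levels had been seen.

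The ligands IGF-I and IGF-II are secreted peptides that activate the receptor tyrosine kinase encoded by Igf1r, which signals through PI3K and AKT to growth, survival and protein synthesis. In extracellular fluid most of the ligand is held by binding proteins, which limit its access to the receptor, carry it, and are cut by proteases to release it. In the nervous system IGF-I is known as a trophic factor for neurons and for the oligodendrocyte lineage, and activated microglia and macrophages are a known source of it.

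Single-cell RNA sequencing had been done on the spinal cord of 8-week-old female Wistar rats, on a 10-mm piece of cord taken 7 days after surgery. Contusion was by a 10 g weight at T9, with a fall of 12.5 mm for mild, 25 mm for moderate and 50 mm for severe injury, while sham animals received only the laminectomy that all groups shared. Each group had 2 libraries of the same droplet chemistry, which are called here by group and number (Sham 1, Sham 2 and so on). The labels do not tie the libraries to single animals, so the p-values measure the spread between these libraries.

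The libraries held 31482153 to 131045446 UMIs each, where a UMI (unique molecular identifier) stands for 1 captured mRNA molecule. After filtering, 55449 of 68658 deposited cells were kept, 2337 to 10009 per library, and cell types were assigned by marker genes, with 8570 cells (15.5%) left unassigned. Sham 1 stood apart from the other libraries, with a median of 2745 UMIs per kept cell and 3944 of its 9192 kept cells assigned to neutrophils. Any 2 libraries shared 2 to 24 cell barcodes, at most 0.377% of the smaller library. Marker lists were compared by their mean over libraries, with macrophages and microglia taken as 1 type by their shared list and their separate lists left out. Neurons and ependymal cells had too few cells for this check. Each type checked had its own marker list as its highest list except the B cells, which are not described on their own.

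Levels are given as CPM, the UMIs of a gene per 1000000 UMIs of the cells of that type in that library, for libraries with at least 20 cells of the type. Counting was from the 3′ end of the mRNA, 1 UMI per molecule whatever its length, so CPM values of different genes are set side by side without a length correction.

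Promoter sequence is shown for the 4 binding proteins that edgeR called between an injured group and sham in at least 1 cell type below. The RefSeq promoter table held all 9 genes, on the assembly GRCr8, which differs from the Rnor_6.0 build used for the counts. The 100 bases before the annotated start are printed 5′ to 3′ on the gene's strand, and capitals mark a TATA box (TATAAA or TATATA) or a GC box (GGGCGG), searched on both strands together with CCAAT.
Igfbp2, chr9:81864711-81864810, plus strand: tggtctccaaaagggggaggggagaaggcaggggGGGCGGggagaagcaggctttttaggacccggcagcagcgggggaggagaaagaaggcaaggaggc
Igfbp3, chr14:86277945-86278044, minus strand: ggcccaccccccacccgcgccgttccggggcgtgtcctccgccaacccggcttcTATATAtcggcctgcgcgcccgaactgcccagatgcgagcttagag
Igfbp4, chr10:84491371-84491470, plus strand: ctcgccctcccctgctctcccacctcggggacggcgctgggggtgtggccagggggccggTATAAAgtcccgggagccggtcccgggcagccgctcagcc
Igfbp5, chr9:81914188-81914287, minus strand: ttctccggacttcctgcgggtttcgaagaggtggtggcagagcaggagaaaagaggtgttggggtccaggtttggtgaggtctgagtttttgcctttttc

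The match in the Igfbp4 window began 40 bases before the start, the match in the Igfbp3 window 46 bases before it, and the GC box of Igfbp2 66 bases before it. Of 33469 promoter windows of the same length, 5.78% held TATAAA, 2.35% held TATATA, 21.6% held GGGCGG and 17.1% held CCAAT. The Igfbp5 window held none of these letters. In the RefSeq order of genes, Igfbp2 and Igfbp5 are neighbouring protein-coding genes on chromosome 9, on opposite strands, and Igfbp3 lies next to Igfbp1 on chromosome 14.

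Over all libraries and cells, Igfbp5 gave the most UMIs (171781), followed by Igf1 (124849), Igfbp7 (105271), Igfbp3 (36770), Igfbp6 (29983), Igfbp2 (19825), Igfbp4 (13125), Igf2 (4550) and Igf1r (954). The order of the first pair rested on Severe 1, without which Igfbp5 had 106740 UMIs and Igf1 116127, and Igf1 gave more UMIs than Igfbp5 in 4 of 8 libraries. Fibroblasts, 1692 cells or 3.05% of the kept cells, held most of the UMIs of 7 of the 9 genes: 86.5% for Igf2, 75.3% for Igfbp2, 71.6% for Igfbp3, 79.2% for Igfbp4, 85.0% for Igfbp5, 84.9% for Igfbp6 and 67.5% for Igfbp7. The exceptions were Igf1, with 87.5% of its UMIs in macrophages/microglia and 11.1% in fibroblasts, and Igf1r, with 36.6% in macrophages/microglia and 22.6% in oligodendrocytes. The fibroblast assignment rested on collagens, decorin and related matrix genes, and in the 7 libraries with at least 20 fibroblasts Col1a1 stood at 1183 to 7102 CPM and Dcn at 2282 to 19042 CPM.

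**Figure D1:**
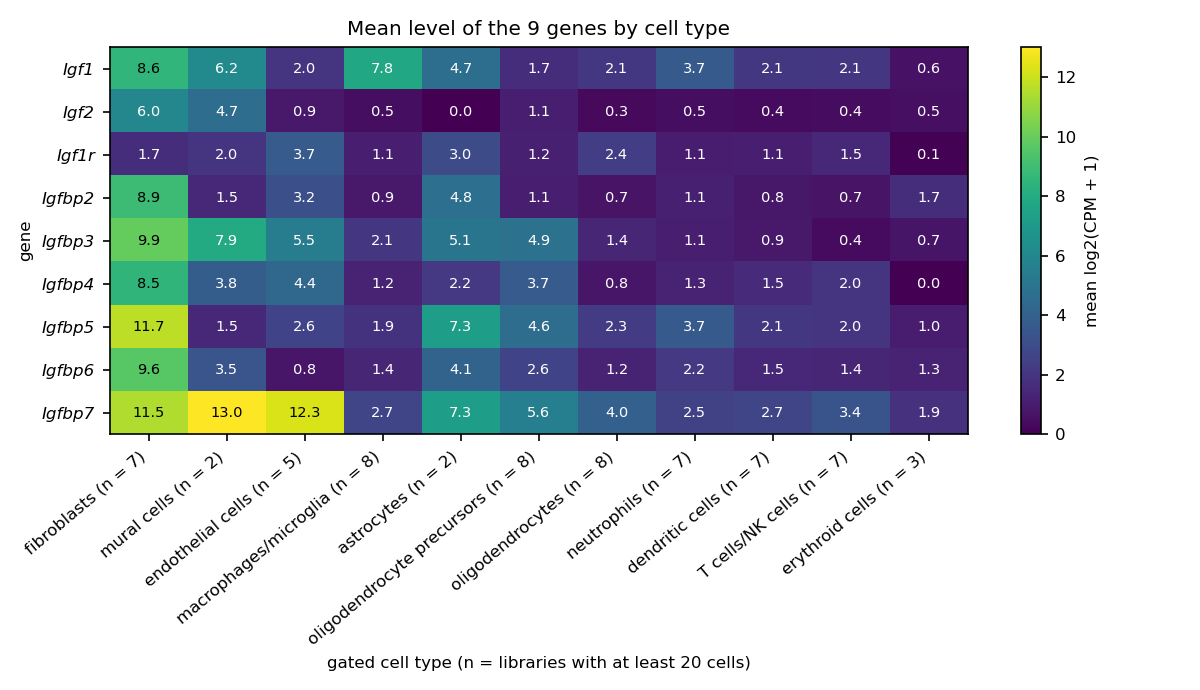
Mean level of the 9 genes (rows) in each assigned cell type (columns), as the mean over libraries of log2(CPM + 1), with the value printed in each cell and n the number of libraries with at least 20 cells of the type. The fibroblast column is high for every gene but Igf1r, the macrophages/microglia column is high for Igf1 alone, and Igfbp7 is the highest gene of the mural and endothelial columns.

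Igf1, the main ligand, stood at 444 ± 245 CPM in fibroblasts (SD, n = 7 libraries) and at 278 ± 144 CPM in macrophages/microglia (n = 8). The fibroblast level was above that of macrophages/microglia in 4 of 7 libraries, by 0.84 ± 2.04 on the log2(CPM + 1) scale, so the order of these cell types did not hold up against the spread between libraries (exact sign-flip permutation test, two-sided, p = 0.359). Macrophages/microglia stood above the next type tested, neutrophils, by 4.06 ± 1.03 in 7 of 7 libraries (exact permutation p = 0.0156, the smallest the design allows). Mural cells, the pericytes and smooth muscle cells of vessels, were measured in the sham libraries alone and held Igf1 at 74.0 ± 7.34 CPM (n = 2).

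Igf2, the ligand best known from fetal growth, was largely a fibroblast transcript of 1 library. Its fibroblast level was 849 CPM in Sham 1 and 31.7, 51.0, 47.6, 53.7, 34.9 and 38.3 CPM in Mild 1, Mild 2, Moderate 1, Moderate 2, Severe 1 and Severe 2. Sham 1 was 15.8 times the highest injured library, and its cells gave 3450 of the 4550 Igf2 UMIs. Sham 2 held 5 fibroblasts, too few for a level, so the difference between sham and injury had no replicate on the sham side and was not tested. Without Sham 1, fibroblasts still held the highest Igf2 level, and over the 7 libraries they stood above oligodendrocyte precursors by 4.76 ± 0.58 on the log2 scale (7 of 7 libraries, exact permutation p = 0.0156).

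Igf1r, the receptor, was the least detected of the 9 genes, with library totals between 21 and 214 UMIs. Its highest mean level was in endothelial cells, 14.7 ± 10.1 CPM (n = 5), followed by astrocytes at 7.26 ± 3.69 CPM (n = 2), mural cells at 7.19 ± 10.2 CPM (n = 2, from 2 UMIs of Sham 1) and oligodendrocytes at 5.03 ± 2.96 CPM (n = 8). Endothelial cells exceeded oligodendrocytes in 4 of 5 libraries by 1.61 ± 1.70 on the log2 scale, which was not distinguishable from the spread (exact permutation p = 0.125, with 0.0625 the smallest possible). Oligodendrocytes exceeded fibroblasts in 7 of 7 libraries by 0.97 ± 0.64 (exact permutation p = 0.0156). Macrophages/microglia, which held the most Igf1 UMIs, had Igf1r at 1.25 ± 0.73 CPM (n = 8).

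Among the cell types tested, every binding protein except Igfbp7 had its highest mean level in fibroblasts. Igfbp5, which binds to extracellular matrix, stood at 4508 ± 2890.1 CPM in fibroblasts (n = 7), and Igfbp6, which prefers IGF-II, at 988 ± 558 CPM. Both were above the next cell type tested, oligodendrocyte precursors, in 7 of 7 libraries, by 6.99 ± 1.77 and 6.67 ± 0.96 on the log2 scale (exact permutation p = 0.0156 each). Astrocytes, measured in the moderate libraries alone, held Igfbp5 at 242 and 98.7 CPM. Schwann cells, measured in Sham 1 alone with 22 cells, held Igfbp6 at 182 CPM and Igfbp4 at 229.5 CPM.

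Igfbp2, Igfbp3 and Igfbp4 were also highest in fibroblasts. Igfbp3, the main carrier of IGF in blood, stood there at 1236 ± 883 CPM, Igfbp2 at 558 ± 367 CPM and Igfbp4 at 389.9 ± 158 CPM (n = 7 each). Endothelial cells came next in the order of types tested, lower than fibroblasts by 5.39 ± 3.72 for Igfbp2 (4 of 4 libraries), by 3.24 ± 3.58 for Igfbp3 (3 of 4) and by 4.41 ± 2.92 for Igfbp4 (4 of 4) on the log2 scale. With 4 libraries holding both types, the smallest exact permutation p is 0.125, and the p-values were 0.125, 0.25 and 0.125, so this order could not be tested at the 0.05 level. In mural cells Igfbp3 stood at 439 and 138 CPM and Igfbp4 at 201 and 0 CPM in the sham libraries.

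Igfbp7, a member of the family with low affinity for IGFs that is known from blood vessels, had a different order. It stood at 8400.5 ± 1482 CPM in mural cells (n = 2), 5216 ± 1848 CPM in endothelial cells (n = 5) and 2952 ± 1022 CPM in fibroblasts (n = 7). Endothelial cells were above fibroblasts in 4 of 4 libraries by 0.74 ± 0.46 (exact permutation p = 0.125, the smallest possible), and fibroblasts above oligodendrocyte precursors in 7 of 7 by 5.73 ± 0.67 (exact permutation p = 0.0156). These are 27 comparisons of neighbouring cell types in all, 3 for each gene, with unadjusted p-values.

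To compare shares of cells at equal depth, each cell was thinned to 1000 UMIs, which kept 1680 fibroblasts and left out 12. Igfbp7 was then detected in 72.6% ± 12.1 of fibroblasts (SD, n = 7 libraries), Igfbp5 in 46.9% ± 21.2, Igfbp6 in 44.3% ± 16.4, Igfbp3 in 26.9% ± 8.70, Igf1 in 25.2% ± 8.67, Igfbp2 in 19.8% ± 5.24, Igfbp4 in 17.5% ± 5.17 and Igf2 in 6.32% ± 7.04. The Igf2 share was 21.9% in Sham 1 and 3.73% ± 1.67 over the 6 other libraries. Unthinned, with a median of 15078.5 UMIs per fibroblast, the shares were 95.6% for Igfbp7, 69.8% for Igfbp5, 81.3% for Igfbp6 and 64.1% for Igf1 over all fibroblasts. In T cells/NK cells, taken as cells with little of these transcripts, the thinned shares of the 9 genes lay between 0.16% and 1.36% (1254 cells, median 3197 UMIs before thinning), where free RNA, doublets and misassigned cells were not told apart. Igf1r, which T cells are known to express, was detected in 0.718% of them and in 0.238% of thinned fibroblasts.

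Many fibroblasts held UMIs of several binding proteins. Of the 1680 thinned fibroblasts, 115 (6.85%) had no UMI of any of the 6 binding proteins, 342 had 1 of them, 534 (31.8%) had 2 and 689 (41.0%) had at least 3. Igf1 together with at least 1 binding protein was found in 452 fibroblasts (26.9%). Thinned shares depend on the depth chosen, and these counts describe detection at 1000 UMIs. They were not compared with the counts that independent detection of each gene would give.

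Across 13 cell types, the genes whose mean log2(CPM + 1) was most like that of a member were found among 9756 genes with at least 20 CPM in some type. Ctsk and Ctsb were among the 3 genes most like Igf1 (Pearson r 0.891 and 0.876). Igf2 was most like Pdgfrl (0.959), Igfbp2 most like Efemp1 (0.973), Igfbp3 most like Mgp (0.947), Igfbp4 most like Gstm2 (0.956), Igfbp5 most like Serpinf1 (0.945), Igfbp6 most like Col8a2 (0.935), Igfbp7 most like Tns2 (0.955) and Igf1r most like Pomc (0.918). Among the members, the pairs most alike were Igfbp3 with Igfbp7 (0.906) and Igfbp5 with Igfbp6 (0.875). These r describe 13 types whose means share libraries, and no test was made on them. The B cells are among the 13 types, and B cells and Schwann cells rest on 1 library each.

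Within fibroblasts, the levels in the 6 injured libraries spread widely. Igfbp5 stood at 4329.6 CPM in Sham 1 and at 6145, 1838, 3151, 545, 8613 and 6933 CPM in Mild 1, Mild 2, Moderate 1, Moderate 2, Severe 1 and Severe 2. The highest and lowest injured libraries differed 15.8-fold, with both severe libraries above every other one. Igfbp6 ranged from 156 CPM in Moderate 2 to 1761 CPM in Severe 2, with Sham 1 inside that range at 914 CPM, and Igfbp7 from 1543 to 4680.4 CPM, with Sham 1 at 2539 CPM.

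Igfbp3 in fibroblasts stood at 2373 CPM in Sham 1, 1661 and 2379 CPM in the mild libraries, 419.8 and 767 CPM in the moderate libraries and 473 and 579 CPM in the severe libraries. The mild libraries lay above all moderate and severe ones, without overlap. Igfbp2 stood at 1349 CPM in Sham 1 and between 244 and 559 CPM in the injured libraries, so that Sham 1 was 2.41 times the highest of them. Igfbp4 stood at 728 CPM in Sham 1 and at 237 to 412 CPM under injury.

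The severe group was compared with the mild group in fibroblasts by edgeR, since both groups had 2 libraries. None of the 9 genes passed an adjusted p of 0.05 in this test, against 152 of 11351 genes (1.34%) called by edgeR. Over all genes, 2448 had an unadjusted p under 0.05. Of the 9, 1 had an unadjusted p under 0.05, and 1 was called by DESeq2, for which no share over all genes is given. That gene was Igfbp3 in both cases, with a log2 fold change of -1.59 (SE 0.33, adjusted p = 0.0702 by edgeR) and adjusted p = 0.00146 by DESeq2. Over the 17 other settings and left-out libraries its edgeR or DESeq2 log2 fold change lay between -1.94 and -1.30 and the adjusted p between 8.69e-07 and 0.256. Igf1 differed by 1.28 (SE 0.55, adjusted p = 0.238) and Igfbp5 by 1.31 (SE 0.82, adjusted p = 0.398), within the spread between libraries.

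The summed level of the 10 mural markers in fibroblasts was 116 CPM in Sham 1, 392 and 167 CPM in the mild libraries, 1084 and 388 CPM in the moderate and 1928 and 1199 CPM in the severe ones, with 7 to 10 of the markers detected. Its part in the fibroblast values was not tested. The summed level of the 14 neutrophil markers in fibroblasts was 2978 CPM in Sham 1 and 35.8 to 248 CPM in the injured libraries, and its part was not tested either.

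**Figure D2:**
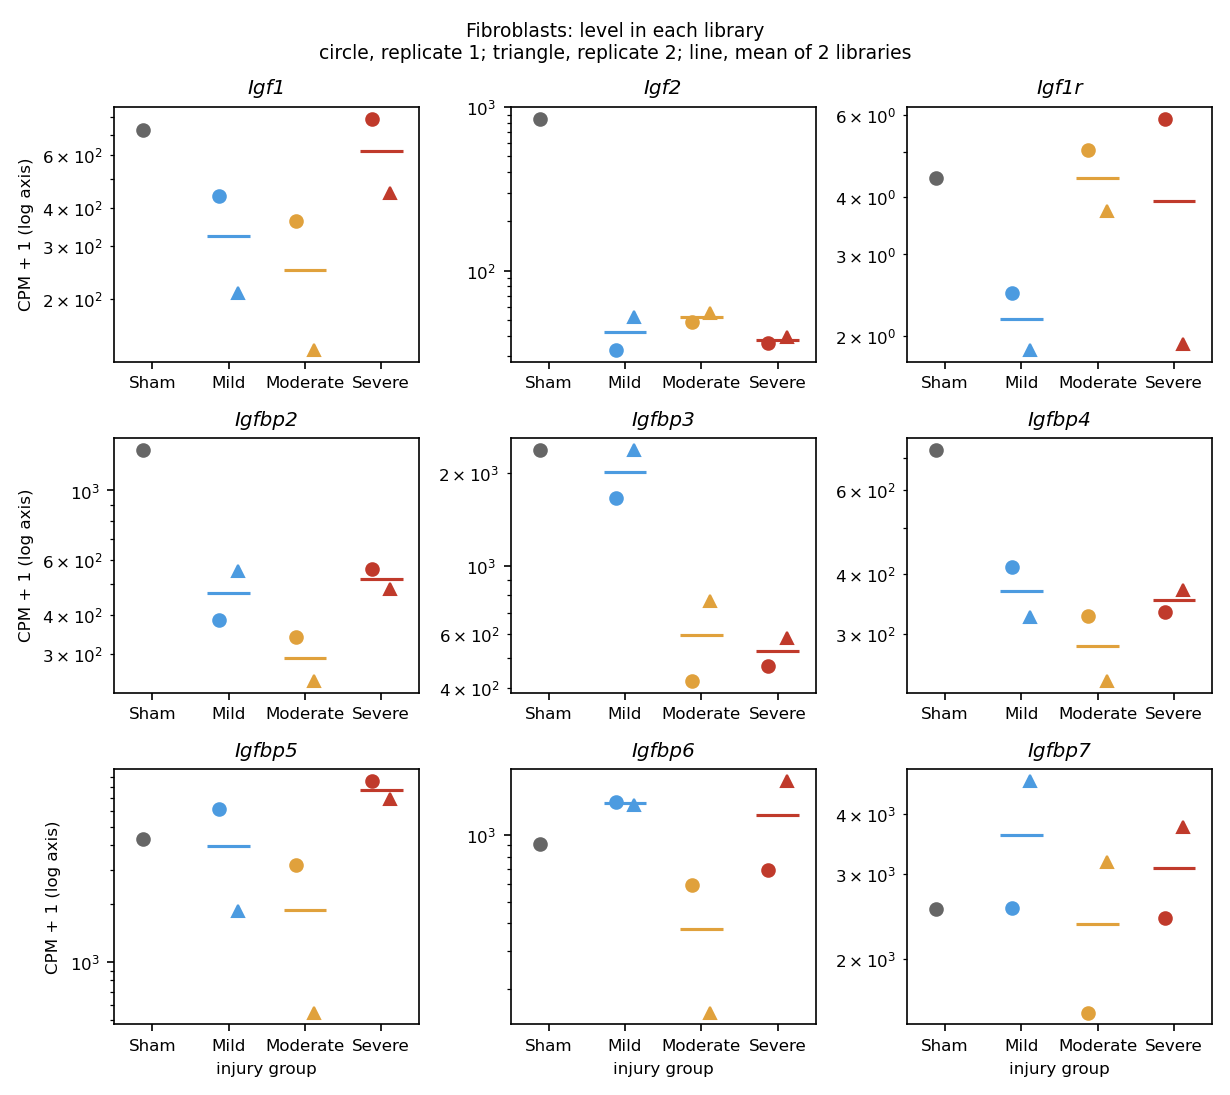
Level of each gene in fibroblasts of each library (CPM + 1, log axis), by injury group, with a circle for replicate 1, a triangle for replicate 2 and a line at the mean of 2 libraries. Sham has a single point because Sham 2 held 5 fibroblasts. Igf2 is at 849 CPM in Sham 1 and at or under 53.7 CPM in the 6 injured libraries, and Igfbp3 is lower in the moderate and severe libraries than in the mild ones.

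Endothelial cells line the vessels, and their assignment was checked by the tight-junction gene Cldn5, at 2535 to 6264 CPM. They reached 20 cells in 5 libraries (164 and 49 cells in Sham 1 and Sham 2, 20 in Mild 2, 65 and 96 in Severe 1 and Severe 2), and those 5 libraries made up the fit. Igfbp2 stood at 3.99 and 0 CPM in Sham 1 and Sham 2, at 0 CPM in Mild 2, and at 111 and 115 CPM in Severe 1 and Severe 2. Both severe libraries were above both sham libraries. A count of 0 allowed up to 11.2 CPM in Sham 2 and 13.4 CPM in Mild 2, by counting error alone.

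Igfbp3 showed the same order, at 47.8 and 0 CPM in the sham libraries, 17.9 CPM in Mild 2 and 536 and 396 CPM in the severe libraries. Igfbp5 stood at 2.66 and 0 CPM in the sham libraries, 0 CPM in Mild 2 and 90.8 and 27.5 CPM in the severe libraries. For both genes the severe libraries lay above the sham and mild ones, and Mild 2 lay within the sham range.

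In the comparison of severe with sham, 3 of the 7 members tested were called higher by edgeR and none lower, against 43 of 7929 genes called higher (0.542%). The log2 fold change was 5.33 for Igfbp2 (SE 0.56, adjusted p = 0.00292), 4.87 for Igfbp5 (SE 0.81, adjusted p = 0.0319) and 4.15 for Igfbp3 (SE 0.73, adjusted p = 0.0392). Igf2 and Igfbp6 had too few UMIs to be tested. Members are tested here only where the counts pass the filter in at least 1 group, so the share of 3 in 7 does not cover all 9. Among the libraries fitted, Igfbp2 reached at most 3.99 CPM and Igfbp5 at most 2.66 CPM outside the severe ones. Both passed the filter only through the severe libraries, where they are high, and could be called only as higher. The share of 3 in 7 is therefore a description and not a test.

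The remaining endothelial members did not pass. Igfbp7 stood at 3026 and 3441 CPM in the sham libraries, 7092 CPM in Mild 2 and 6171 and 6349.9 CPM in the severe libraries, with a log2 fold change of 1.25 (SE 0.35, adjusted p = 0.140 by edgeR, 0.00992 by DESeq2). Igfbp4 was at 1.99 and 26.0 CPM against 182 and 25.0 CPM, and the groups overlapped (adjusted p = 0.137). Igf1r was at 30.6 and 18.6 CPM in the sham and 5.27 and 10.0 CPM in the severe libraries, with a log2 fold change of -1.43 (SE 0.55, adjusted p = 0.276).

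A small number of cells carried most of these UMIs. The 84 Igfbp2 UMIs of Severe 1 lay in 10 of 65 cells and the 138 of Severe 2 in 24 of 96 cells, with 66.7% and 55.8% of them in the top 3 cells. For Igfbp3 the top 3 cells held 78.1% of 407 UMIs and 74.9% of 475 UMIs. Of the 69 Igfbp5 UMIs of Severe 1, 52 came from 1 cell, and the top 3 cells of Severe 2 held 93.9% of its 33.

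The calls rested on few libraries. Igfbp2 kept its call under the 8 alternatives that gave an adjusted p and was lost without Severe 2 (adjusted p = 0.0886). Igfbp5 was lost under 5 of 8 alternatives, with a log2 fold change of 1.05 when no doublets were removed, and without Sham 1, Mild 2, Severe 1 or Severe 2. Igfbp3 was lost under 4 of 9, and without Mild 2, Severe 1 or Severe 2 (adjusted p up to 0.384). The summed level of the 12 fibroblast markers in the endothelial cells was 73.7 and 126 CPM in the sham, 273 CPM in the mild and 97.4 and 90.0 CPM in the severe libraries, with 6 to 9 markers detected. Among them Col1a2 was at 0 in all 5 libraries, while Col3a1 stood at 7.97 to 116 CPM and Fbln1 at 13.3 to 33.5 CPM. The 10 mural markers summed to 209 and 219 CPM in the sham, 1374 CPM in the mild and 104 and 218 CPM in the severe libraries, with 6 to 9 detected. Neutrophil markers, the next-highest list of endothelial cells in the check of marker lists, averaged 1140 CPM over the 5 libraries. The part of these lists in the endothelial values, the Igfbp7 level of Mild 2 among them, was not tested.

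**Figure D3:**
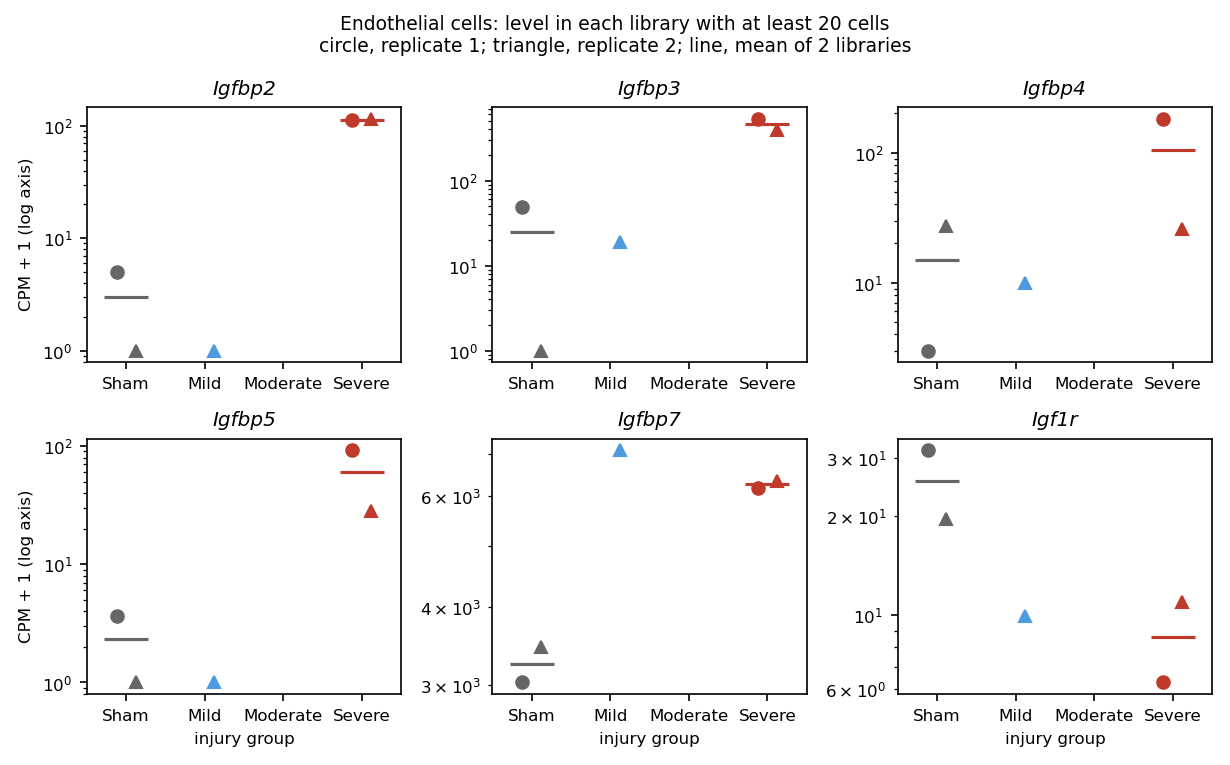
Level of 6 members in endothelial cells of each library with at least 20 cells (CPM + 1, log axis), by injury group, with a circle for replicate 1, a triangle for replicate 2 and a line at the mean of 2 libraries; the moderate group has no such library. The severe libraries lie above the sham libraries for Igfbp2, Igfbp3, Igfbp5 and Igfbp7, below them for Igf1r, and overlap them for Igfbp4.

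Oligodendrocyte precursors, the dividing glia that give rise to oligodendrocytes, held binding proteins at low levels in all 8 libraries. Igfbp4, which holds both ligands until proteases cut it, stood at 2.35 and 4.62 CPM in the sham libraries, 21.3 and 20.1 CPM in the mild, 18.9 and 19.7 CPM in the moderate and 21.5 and 11.5 CPM in the severe libraries. All 6 injured libraries were above both sham libraries, which had 1 and 3 Igfbp4 UMIs in 62 and 71 cells. Igfbp5 stood at 16.5 and 15.4 CPM in the sham and 13.6 and 15.8 CPM in the mild libraries, at 42.9 and 47.7 CPM in the moderate and at 27.1 and 36.1 CPM in the severe libraries.

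Sham and mild thus overlapped for Igfbp5, and moderate and severe lay above both. In the mild group 1 of 7 members tested was called higher than in the sham group, against 2.84% of 11771 genes: Igfbp4, with a log2 fold change of 2.48 (SE 0.59, adjusted p = 0.0333). In the moderate group 2 of 7 were higher (3.83% of all genes): Igfbp4 by 2.37 (SE 0.59, adjusted p = 0.0298) and Igfbp5 by 1.51 (SE 0.35, adjusted p = 0.0224). In the severe group 2 of 7 were higher (5.64% of all genes): Igfbp4 by 2.33 (SE 0.62, adjusted p = 0.0312) and Igfbp5 by 1.37 (SE 0.36, adjusted p = 0.0303).

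The severe group exceeded the mild group for 1 of 7 members (2.63% of all genes called higher), Igfbp5, by 1.47 (SE 0.26, adjusted p = 0.00711), while mild against sham gave -0.10 for it (adjusted p = 0.924). No member was called lower in these cells. Severe 1 rested on 34 Igfbp5 UMIs, 27 of them in 1 cell, whereas the 290 and 582 UMIs of the moderate libraries lay in 111 and 90 cells. The 3 contrasts against sham share the same 2 sham libraries.

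All 3 Igfbp4 calls were lost when only the groups compared entered the fit (adjusted p up to 0.0867), without Sham 1 and without either library of the injured group (adjusted p up to 0.133). The Igfbp5 calls against sham were lost with only the groups compared, and all 3 Igfbp5 calls when a cell's best marker list had to lead the next by a factor of 2 (adjusted p up to 0.510). With counts scaled by library size alone, the Igfbp4 and Igfbp5 calls of severe against sham were lost as well. Among left-out libraries, the moderate Igfbp5 call was lost without either sham or either moderate library (adjusted p up to 0.0882), the severe call without Sham 1 or Severe 2 (up to 0.224), and the call of severe against mild without Mild 1, Mild 2 or Severe 2 (up to 0.139). The summed fibroblast markers in these cells stood at 65.9 and 63.2 CPM in the sham libraries, 106 and 84.4 CPM in the mild, 149 and 98.9 CPM in the moderate and 79.0 and 54.3 CPM in the severe libraries, with 5 to 12 of 12 markers detected. The 12 oligodendrocyte markers summed to 4048 and 2298 CPM in the sham, 2437 and 2925 CPM in the mild, 1434 and 1467 CPM in the moderate and 1267 and 1386 CPM in the severe libraries, so that sham and mild lay above moderate and severe. The 11 markers of the precursors themselves summed to 9027 and 5774 CPM in the sham and 2287 to 4292 CPM in the injured libraries. The 14 neutrophil markers summed to 4759 CPM in Sham 1, 359 CPM in Sham 2 and 71.0 to 457 CPM in the injured libraries. The part of these lists in the Igfbp4 and Igfbp5 values was not tested.

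Igfbp3 in oligodendrocyte precursors stood at 7.06 and 35.4 CPM in the sham libraries and at 18.3 to 70.0 CPM in the injured ones, and Igfbp7 at 26.2 to 86.9 CPM over all 8, with the groups overlapping. Igf1 was at 0 in Sham 1, Sham 2 and Severe 1 and at most 10.2 CPM elsewhere.

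Mature oligodendrocytes held Igf1 at 1.07 and 2.52 CPM in the sham libraries, 3.79 and 6.43 CPM in the mild, 8.53 and 10.5 CPM in the moderate and 0 and 2.75 CPM in the severe libraries. The moderate libraries were the highest, and the sham and severe libraries overlapped. Against sham, 1 of 5 members tested was called higher in the moderate group (3.02% of 9635 genes), Igf1 by 2.90 (SE 0.68, adjusted p = 0.0390), from 14 and 20 UMIs against 12 and 1. The call was lost without any of 5 of the libraries, Sham 1, both mild and both moderate ones (adjusted p up to 0.545).

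Mild against sham and severe against sham gave 0 of 5 in these cells by edgeR, with 1 each at an unadjusted p under 0.05 and 0 by DESeq2 (8.88% and 1.14% of genes called by edgeR in either direction). Of all 9635 genes, 2764 and 2130 had an unadjusted p under 0.05. The 11 macrophage/microglia markers summed in oligodendrocytes stood at 428 and 368 CPM in the sham, 538 and 695 CPM in the mild, 717 and 506 CPM in the moderate and 244 and 364 CPM in the severe libraries. The 11 markers of the macrophage list summed to 56.0 and 25.2 CPM in the sham, 141 and 157 CPM in the mild, 244 and 232 CPM in the moderate and 9.09 and 29.2 CPM in the severe libraries, with 2 to 11 detected. The macrophage list was highest in the moderate libraries. The shared list was lower in Moderate 2 than in both mild libraries, and the shared and macrophage lists were higher in Sham 1 than in Sham 2. The 10 markers of the microglia list summed to 52.1 and 63.1 CPM in the sham and 67.5 and 62.3 CPM in the mild libraries. They stood at 97.5 and 87.9 CPM in the moderate and 51.1 and 31.0 CPM in the severe libraries, with 4 to 10 detected. The microglia list was thus highest in the moderate libraries and higher in Sham 2 than in Sham 1. The part of these lists in the Igf1 level was not tested.

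**Figure D4:**
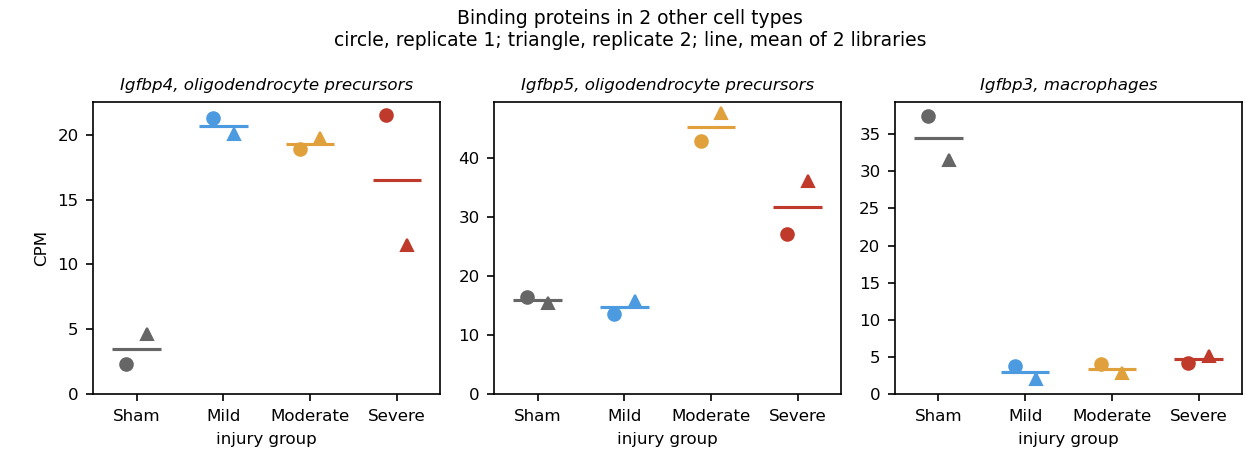
Level (CPM, linear axes from 0) of Igfbp4 and Igfbp5 in oligodendrocyte precursors and of Igfbp3 in macrophages, by injury group, with a circle for replicate 1, a triangle for replicate 2 and a line at the mean of 2 libraries. Igfbp4 is at or under 4.62 CPM in the sham libraries and at or above 11.5 CPM in the injured ones, and Igfbp3 in macrophages is above 30 CPM in the sham libraries and at or under 5.12 CPM in the injured ones.

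Macrophages/microglia, 29027 cells or 52.3% of those kept, carried most of the Igf1. Its level was 32.2 and 324 CPM in Sham 1 and Sham 2, 186 and 468 CPM in the mild, 435 and 334 CPM in the moderate and 174 and 267 CPM in the severe libraries. The sham libraries enclosed several injured ones, so the groups overlapped. None of the 9 members was called by edgeR in mild, moderate or severe against sham or in severe against mild. Of all 13363 genes, edgeR called 5.87%, 1.43%, 6.98% and 2.22%. At an unadjusted p under 0.05 were 1, 0, 3 and 0 members, beside 3842, 2891, 3840 and 2649 of all genes. DESeq2 called 1, 0, 2 and 0 members, for which no share over all genes is given.

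A subset of these cells could be assigned further, as microglia, the resident phagocytes, or macrophages, which include those that enter from blood. P2ry12, a microglial receptor gene, stood at 37.8 to 209 CPM in the 8093 microglia and at no more than 19.2 CPM in any library of the 12655 macrophages. Igf1 in microglia was 29.4 and 321 CPM in the sham libraries, 206 and 583 CPM in the mild, 528 and 457 CPM in the moderate and 288 and 350.5 CPM in the severe libraries. In macrophages it was 49.3 and 326 CPM in the sham, 159 and 373 CPM in the mild, 357 and 262 CPM in the moderate and 155 and 225 CPM in the severe libraries.

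Microglia thus exceeded macrophages for Igf1 in all 6 injured libraries and in neither sham library. Tested over all 8 libraries with the library as a term, the difference did not pass (log2 fold change 0.22, adjusted p = 0.236 by edgeR). At equal depth of 1000 UMIs, Igf1 was detected in 23.6% ± 10.5 of microglia and 15.4% ± 7.93 of macrophages (SD, n = 8).

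**Figure D5:**
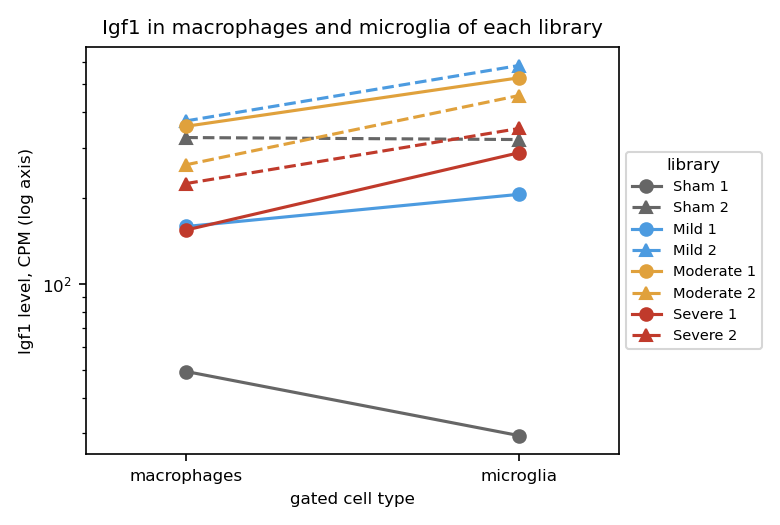
Igf1 level (CPM, log axis) in macrophages and microglia of the same library, each line 1 library, coloured by injury group, with circles and solid lines for replicate 1 and triangles and dashed lines for replicate 2. The line rises from macrophages to microglia in the 6 injured libraries and falls in Sham 1, the lowest at 49.3 and 29.4 CPM. In Sham 2 the levels are nearly equal, at 326 and 321 CPM.

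Of the 7 members tested between these cells, 2 were lower in microglia, Igfbp3 by a log2 fold change of -2.55 (SE 0.56, adjusted p = 0.00204) and Igfbp4 by -1.80 (SE 0.32, adjusted p = 0.000488). Among all 10983 genes 26.7% were called lower in microglia, near the share of 2 in 7. Igfbp3 stood at 2.02 to 37.5 CPM in macrophages and 0.152 to 3.37 CPM in microglia, and was lower in microglia in 8 of 8 libraries. Igfbp4 stood at 0.768 to 4.11 CPM and 0.202 to 1.80 CPM, and was lower in 8 of 8 as well.

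Igfbp3 in macrophages differed between injury and sham. It stood at 37.5 and 31.5 CPM in the sham libraries, 3.82 and 2.02 CPM in the mild, 4.01 and 2.82 CPM in the moderate and 4.21 and 5.12 CPM in the severe libraries, and the sham and injured libraries did not overlap. The sham values rested on 60 UMIs in 20 of 147 cells and 23 UMIs in 13 of 77 cells. Against sham the log2 fold change was -3.46 in the mild group (SE 0.40, adjusted p = 0.0141), -3.26 in the moderate group (SE 0.40, adjusted p = 0.0380) and -2.41 in the severe group (SE 0.39, adjusted p = 0.0197).

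Counts of members called in macrophages, all of them lower, were 2 of 9 in the mild group (5.62% of 12152 genes called in either direction), 1 of 9 in the moderate group (0.288%) and 1 of 9 in the severe group (4.77%). The second member in the mild group was Igf2, with 7 UMIs in the sham libraries, all in Sham 1, and 0 in the mild ones. The sham level was 52.3 times a floor of 3 counts over the mild group, with the counting error of the 7 UMIs left out. Igf2 in Sham 1 stood at 4.37 CPM in macrophages, 5.21 CPM in microglia and 5.31 CPM in endothelial cells. Such a level was therefore not particular to the macrophages of that library. Without Sham 1 no Igf2 UMI remained in either group, and the difference was 0, and the call was also lost without either mild or either severe library. None of the 9 was called between severe and mild in macrophages by edgeR or DESeq2 (4.34% of genes called by edgeR in either direction). At an unadjusted p under 0.05 was 1 member, beside 2582 of 12152 genes.

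The 3 Igfbp3 calls were lost when only the groups compared were fitted (adjusted p up to 0.245), the mild call without Mild 1 or Mild 2 (up to 0.121), the moderate call without Mild 1, Mild 2, Moderate 1, Moderate 2 or Severe 2 (up to 0.235), and the severe call without Sham 1, Severe 1 or Severe 2 (up to 0.0848). The 12 fibroblast markers summed in macrophages stood at 625 CPM in Sham 1, 122 CPM in Sham 2 and 99.9 to 193 CPM in the injured libraries. The 11 markers shared by macrophages and microglia summed to 22196 and 18788 CPM in the sham and 11421 to 16046 CPM in the injured libraries. Neutrophil markers summed to 5549 CPM in Sham 1, 174 CPM in Sham 2 and 270 to 554 CPM in the injured libraries, and dendritic cell markers to 1519, 3611 and 705 to 1718 CPM. The part of these lists in the Igfbp3 level was not tested.

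In microglia tested alone, edgeR called 0 of 8 members in mild, moderate or severe against sham and in severe against mild. DESeq2 also called 0 in each. At an unadjusted p under 0.05 were 0, 1, 1 and 0 members, beside 2815, 2035, 2276 and 2110 of 11769 genes. Of all genes, edgeR called 1.22%, 0.144%, 1.38% and 2.67%. Severe against mild called 0 of 3 members in T cells/NK cells, 0 of 1 in neutrophils and 0 of 1 in dendritic cells. Of all genes, edgeR called 3.48%, 4.39% and 2.39%, and DESeq2 called 0 of these members. At an unadjusted p under 0.05 were 1, 0 and 0 members, beside 959 of 6444, 705 of 4076 and 992 of 6538 genes. In oligodendrocytes the same contrast called 0 of 5 by edgeR (3.55% of genes) and 0 by DESeq2. At an unadjusted p under 0.05 were 0 members, beside 2022 of 9635 genes.

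A list of 44 further genes of the pathway was read beside the members, of which 42 were in the tables: 12 receptors and adaptors, 19 genes of PI3K, AKT and mTOR signalling, 5 other ligands and carriers and 6 of 8 proteases and their inhibitors. The highest by mean level over cell types were Rheb, the small GTPase that activates mTOR (179 CPM), Htra1, a secreted protease that cuts binding proteins (170 CPM, with 706 CPM in fibroblasts), and Pik3r1, a regulatory subunit of PI3K (96.0 CPM). In fibroblasts 0 of 33 and in endothelial cells 0 of 22 tested genes of the list were called by edgeR, the latter against 0.769% of genes in either direction.

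Igf2r, the receptor that takes up IGF-II for breakdown, was the pathway gene that rose in macrophages/microglia of every injured group. Its level was 18.2 and 7.01 CPM in the sham libraries, 55.8 and 58.6 CPM in the mild, 63.1 and 81.7 CPM in the moderate and 66.6 and 40.8 CPM in the severe libraries. All 6 injured libraries were above both sham libraries, with log2 fold changes of 2.38 (adjusted p = 0.0264), 2.68 (adjusted p = 0.0311) and 2.67 (adjusted p = 0.0130) in the mild, moderate and severe groups. It was the 1 of 32 tested pathway genes called higher in the mild and in the moderate group, where 3.43% and 1.07% of all genes were.

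Igf2r was lower in microglia than in macrophages by -2.77 (adjusted p = 1.20e-08), and macrophages outnumbered microglia in the 6 injured libraries and in neither sham library, whose part in the rise was not tested. Between microglia and macrophages 4 of 28 pathway genes were higher and 9 lower in microglia, against 27.3% and 26.7% of all genes. Those higher included the phosphatase gene Ptpn1 (0.61), the Pappa inhibitor Stc2 (0.99) and Pik3r1 (0.32). Besides Igf2r, those lower included Htra1 (-2.31), the insulin receptor substrates Irs3 (-1.97) and Irs2 (-0.41), Foxo4 (-0.49), Pik3cb (-0.45), Tsc2 (-0.34) and Rheb (-0.16), with adjusted p between 1.20e-08 and 0.0491 over the 13 genes. Between severe and sham, 2 of 32 tested pathway genes rose in macrophages/microglia (4.54% of all genes), Igf2r and the adaptor Sh2b2 (2.32, adjusted p = 0.00995), and 1 fell (2.44%).

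In macrophages alone 2 of 32 pathway genes were higher than in sham in the mild group (2.86% of all genes) and in the severe group (2.77%), in both cases Igf2r (1.42, adjusted p = 0.0302, and 1.35, adjusted p = 0.0322) and Sh2b2 (1.60, adjusted p = 0.0301, and 2.57, adjusted p = 0.00649). In microglia alone 1 of 31 was higher in the mild group (0.450%), Igf2r (adjusted p = 0.0383), 1 in the severe group (0.824%), Sh2b2 (2.12, adjusted p = 0.0218), and 1 in severe against mild (1.85%), Sh2b2 (1.64, adjusted p = 0.0411). In T cells/NK cells 1 of 15 was higher in severe than in mild (2.11%), Pik3r1 (1.42, adjusted p = 0.0338).

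In oligodendrocyte precursors 1 of 32 pathway genes fell in the mild group (3.02% of all genes called lower), Pik3r1 (-1.61, adjusted p = 0.0232). In the moderate group 1 rose and 1 fell (3.83% of all genes called higher and 3.60% lower): Adamts1, a secreted metalloprotease, rose by 1.98 (adjusted p = 0.0119) and Grb14, an adaptor that inhibits the insulin receptor, fell (-1.69, adjusted p = 0.00831). In the severe group Akt1, a kinase downstream of PI3K, rose by 0.97 (adjusted p = 0.0386; 5.64% of all genes called higher), while 2 fell (5.66% of all genes called lower), Grb14 (-1.20, adjusted p = 0.0347) and the catalytic subunit gene Pik3ca (-1.30, adjusted p = 0.0322). Severe against mild gave 1 lower (3.07%), Pik3r2 (-1.11, adjusted p = 0.0440). Mature oligodendrocytes of the mild group had Foxo1 (1.92, adjusted p = 0.0129), Akt1 (0.98, adjusted p = 0.0480) and Pik3r2 (1.34, adjusted p = 0.0326) higher and Grb14 (-1.19, adjusted p = 0.0434) and Gab1 (-2.13, adjusted p = 0.0233) lower, 3 and 2 of 26 tested, against 3.93% and 4.95% of all genes.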

How the data were processed

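For each library the authors deposited raw UMI counts per gene and cell, made with Cell Ranger against Rnor_6.0; the file headers give version 5.0.1 and the study's supplementary methods 6.0.1. No normalized values were used. Cells with over 10% mitochondrial UMIs, the 7.7% highest by Scrublet score (scanpy 1.11.5) and cells beyond 2 SD of UMIs or genes within their library were removed, in the study's order; the study names no doublet tool. A cell was assigned to a type when at least 3 markers of the list were detected and the list, scaled to its 90th percentile, led the next by 1.5 times; 3565 cells lay between 1.2 and 1.5. A few fixed markers are not analysed here. This rule was set after the counts and the members' levels had been seen, and the members and lists were chosen with earlier results of these data known. The text names all 9 members, pathway genes that passed the test, except 2 not reported here, and the 3 highest of the pathway list.

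Counts were summed per library and type, and tested with edgeR 4.0.16 (R 4.3.3; TMM, filterByExpr, quasi-likelihood F-test, all groups in 1 fit, Benjamini-Hochberg adjustment over all genes at 0.05), with DESeq2 1.42.0 as an alternative. The SE given with an edgeR log2 fold change is its absolute value divided by the square root of F, not a separate estimate. Microglia were tested against macrophages with library as a term. Cell types were compared within libraries by exact sign-flip permutation of log2(CPM + 1). The edgeR scripts were tested on simulated data. Library totals were 31482153 to 131045446 UMIs; limits for a count of 0 are 3 counts and cover counting error only. Alternatives were library size scaling, no count filter, a replicate block, only the 2 groups compared, each library left out, a 20% mitochondrial limit, no doublet removal, stricter assignment, a pseudocount of 10 CPM, at least 100 cells and thinning to 500 UMIs.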

Additional observations from a re-analysis of the deposited data

Results flagged for a closer look

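The difference in Igf1 between microglia and macrophages of the same library had opposite signs in the injured and the sham libraries, with nearly equal levels in Sham 2. On the log2(CPM + 1) scale microglia minus macrophages averaged 0.65 over the 6 injured libraries, all above 0, and -0.37 over the 2 sham libraries, both below 0 (-0.73 in Sham 1 and -0.02 in Sham 2), a difference of 1.03 (exact permutation test of the group labels, two-sided, p = 0.0357, the smallest that 6 against 2 libraries allow). The test was made for all 9 members, and adjusted over them p was 0.161, so it did not pass. Igfbp3 had the same p and adjusted p, with a difference of 2.92, from -3.98 in the sham to -1.06 in the injured libraries, lower in microglia in both. Without Sham 1 the difference was 0.67 and without Sham 2, which is also the value with at least 100 cells of each kind, 1.38, both with a single sham library (exact permutation p = 0.143, the smallest then possible). The sham libraries held 147 and 77 macrophages, and the pattern was noticed before it was tested.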

How the results depend on the processing

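Of 121 tests of a member in an injured group against sham, 13 passed; 46 did with no filter on low counts, 3 with only the 2 groups compared, and between 5 (without Sham 1) and 47 (without Sham 2) with 1 library left out, where Mild 1 gave 8 and Mild 2 or Severe 2 gave 6. The 121 tests here and the 52 below are those of the main settings. Other settings could test other numbers of members, more with no filter, so their counts are not shares of these totals. No share over all genes is given for these other settings, so a change in the counts is not a result about the members. A fit that leaves a group with 1 library assumes that it varies like the others. Of 52 tests of severe against mild, 1 passed; the count was 3 with DESeq2, 3 with library size scaling, 2 without doublet removal, 6 with no filter, 3 with only the 2 groups, 0 with an assignment margin of 2 (chosen after seeing the data) and 0 to 3 with 1 library left out. The replicate numbers did not pair the libraries (correlations of deviations between groups -0.23 to 0.25); with the replicate block, severe against mild gave 2 calls, and Igf1 in oligodendrocytes of the moderate group was lost. Microglia against macrophages gave 2 calls, and 2 to 4 with 1 library left out (4 without Moderate 2). With at least 100 cells per type, fibroblasts against oligodendrocyte precursors gave 4.78 for Igf2, 6.48 for Igfbp5 and 6.65 for Igfbp6 in 4 libraries, where p cannot fall below 0.125. Igf2 in macrophages, mild against sham, ran from -9.45 without Sham 2 to 0.0 without Sham 1. Thinning to 500 UMIs gave 14.5% of fibroblasts for Igf1, 58.6% for Igfbp7 and 80.9% of endothelial cells for Igfbp7. DESeq2 gave no adjusted p for Igfbp2 and Igfbp5 in endothelial cells and Igf1 in oligodendrocytes. The causes were not tested. Depth was low in endothelial cells, with 20 to 164 cells a library, and for Igfbp4 in sham oligodendrocyte precursors, with 1 and 3 UMIs.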
